A study of Mus musculus with 12 samples.

Results

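Retinas of mice that had been immunized and then needled at GB20 were compared with retinas of SHAM mice, to ask which genes differed from SHAM after this treatment. The comparison was between 6 of the 12 RNA-seq libraries of the series, 3 of SHAM and 3 of GB20, chosen by their sample labels and not by any measured value. All 12 libraries entered the fit, so that the other groups shared in the filter, the scaling and the estimate of the spread. Of 54532 gene identifiers in the count table, 34538 had a count and 18299 were expressed highly enough to be tested.

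All mice were female wild type C57BL/6 animals aged 13 weeks. GB20 mice had received a peptide of myelin oligodendrocyte glycoprotein (MOG) in complete Freund's adjuvant with mycobacteria, followed by pertussis toxin, and were later needled on both sides at the acupoint GB20 under xylazine and ketamine anaesthesia in repeated sessions. SHAM mice are labelled only as sham controls, and the sources used here do not say whether they received adjuvant, toxin, anaesthesia or a needle. The contrast therefore joins immunization, its adjuvants, anaesthesia and needling, and the parts of these in any difference cannot be told apart. MOG mice (immunized, not needled) and GV16 mice (immunized, needled at the control acupoint GV16) supplied 3 libraries each. These libraries entered the fit behind every call, and their levels are cited only where the same gene is set beside them. Groups held few mice in each of several repeats of the experiment, and the sources do not say if a library pooled mice, so that the p-values measure the spread between libraries, which may be technical.

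MOG immunization is used to produce experimental autoimmune encephalomyelitis with optic neuritis, in which immune cells attack the myelin of the optic nerve. The axons of that nerve belong to retinal ganglion cells (RGCs), the output neurons of the retina, and damage to them is known to be followed by loss of RGC-specific transcripts, by activation of injury genes in the surviving neurons and by gliosis of Müller cells and astrocytes. Neurofilaments, the intermediate filaments of large axons, are made in the retina mainly by RGCs. In retinal bulk RNA, fewer cells of a type and less RNA per cell cannot be told apart.

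Between 16637268 and 18033426 fragments were counted on genes in the SHAM libraries and between 16338917 and 19194280 in the GB20 libraries. Retinal identity was plain in all 6, with rod genes together at 78360 to 85950 CPM (counts scaled to the size of the library), and the tested cone, rod and bipolar genes gave 0 DEGs. SHAM replicate 2 stood apart from the other SHAM libraries. Its counts differed from those of SHAM replicates 1 and 3 with a mean chi-square per gene of 11.8 and 16.5, against 5.95 between SHAM replicates 1 and 3, and its longer genes were lower, with a slope of -0.116 log2 units per doubling of length against -0.0490 to 0.0501 in the other 5 libraries. Counts of DEGs are therefore also given without it. Mitochondrial transcripts took 3.06% of the counts in GB20 replicate 1 and between 2.46% and 2.70% in the other 5 libraries.

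In GB20 vs. SHAM, 63 differentially expressed genes (DEGs) were found, of which 30 were higher and 33 were lower in GB20. A gene counted as a DEG, whatever its fold change, when the quasi-likelihood test of edgeR gave a Benjamini-Hochberg adjusted p under 0.05, and this is the adjusted p given throughout. The DEGs made up 0.344% of the tested genes, with 0.164% higher and 0.18% lower, while 9.06% of the tested genes had an unadjusted p under that limit. The lower DEGs were abundant transcripts with modest changes (median SHAM level 64.6 CPM, median log2 fold change -0.53), and the higher DEGs were scarcer ones with larger changes (median SHAM level 7.45 CPM, median log2 fold change 0.93). Sizes ran from -1.54 to 2.96 on the log2 scale, with 15 DEGs over 1 and 21 under 0.5 in size. The SHAM and GB20 libraries did not overlap for any of the 63, beside 12.7% of all tested genes. The same-numbered GB20 and SHAM libraries deviated together, and with the replicate number as a block the count was 182 DEGs (0.995%), 68 higher and 114 lower, which included 61 of the 63. The count was 94 (33 higher, 61 lower) without SHAM replicate 2, and it was lowest without SHAM replicate 1 (14) and without GB20 replicate 1 (16). It was 36 without SHAM replicate 3, 42 without MOG replicate 2, 40 without MOG replicate 3 and 116 without GV16 replicate 1. Of the 63, 12 were still called without SHAM replicate 1, 16 without GB20 replicate 1 and 63 without GV16 replicate 1, so that many calls lay close to the threshold. In the fits that left out 1 library, each DEG kept its direction.

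**Figure D1:**
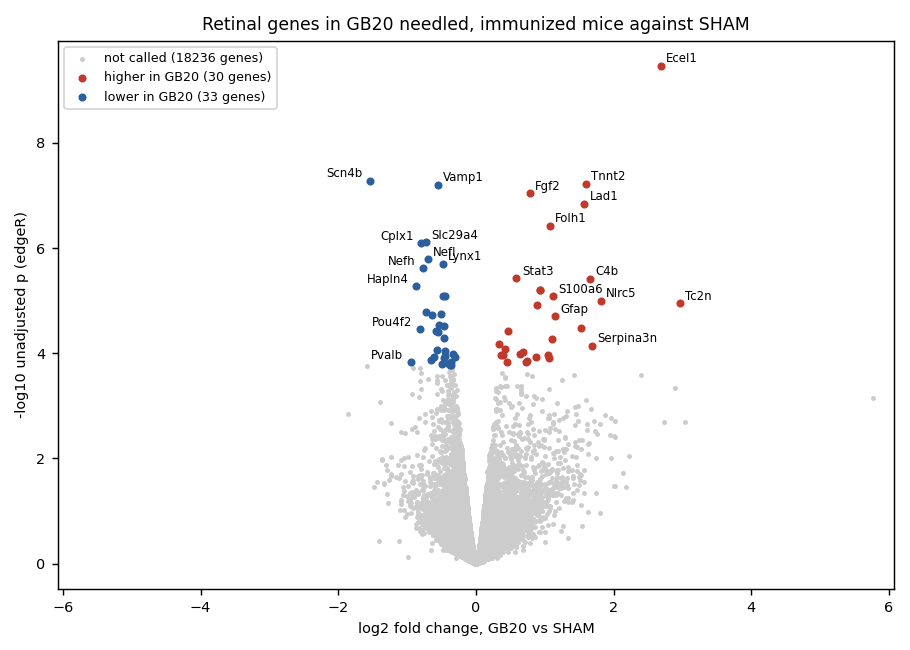
Log2 fold change of GB20 vs. SHAM (x axis) against -log10 of the unadjusted edgeR p (y axis) for the 18299 tested genes, with 30 DEGs higher in GB20 in red, 33 lower in blue and the other genes in grey. Red points reach further from 0 than blue points, and the grey point at the far right is Sprr1a, which had 0 counts in SHAM.

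The largest fall among the DEGs was that of Scn4b, the beta-4 subunit of voltage-gated sodium channels (chr9:45138395-45154152, + strand, mm10). Scn4b stood at 11.99, 11.2 and 12.8 CPM in the SHAM libraries and at 3.19, 4.92 and 4.26 CPM in the GB20 libraries. It was thus 65.7% lower in GB20, or -1.54 ± 0.19 on the log2 scale (± SE, as for all fold changes, adjusted p = 0.00028). The SHAM values lay close together and all 3 GB20 values were below them by more than the spread within either group.

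Pvalb, which encodes the calcium buffer parvalbumin and in the retina marks some RGCs and amacrine cells (chr15:78191114-78206400, - strand), was at 17.1, 17.5 and 11.5 CPM in SHAM and at 8.81, 7.96 and 7.07 CPM in GB20. The fall was -0.95 ± 0.20 on the log2 scale (adjusted p = 0.046), with SHAM replicate 3 nearest to GB20. Hapln4, a link protein of the matrix around axons and synapses (chr8:70083457-70090862, + strand), fell from 15.01, 12.6 and 12.2 CPM to 6.70, 7.66 and 7.43 CPM (log2 fold change -0.87 ± 0.15, adjusted p = 0.0065). All values of GB20 were again under the lowest of SHAM. The Pvalb call was kept in 4 of the 12 fits that left out 1 library, at log2 fold changes of -1.12 to -0.84, and the call of Hapln4 ended without SHAM replicate 1 (-0.78) and without GB20 replicate 1 (-0.82).

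Pou4f2, which encodes the RGC transcription factor Brn3b (chr8:78433010-78436645, - strand), was at 13.0, 8.82 and 11.6 CPM in SHAM and at 6.03, 6.14 and 6.76 CPM in GB20, a fall of 43.3% (log2 fold change -0.82 ± 0.16, adjusted p = 0.021). The GB20 values were the tighter of the groups, and SHAM replicate 2 was the SHAM library nearest to them. Its call ended on leaving out SHAM replicate 1 (-0.70), GB20 replicate 1 (-0.79), SHAM replicate 3 (-0.79) or GB20 replicate 2 (-0.80). Of the 23 tested RGC transcription factors, Pou4f2 was the only one called, beside the 0.18% of all tested genes called lower, although 21 of the 23 had a log2 fold change under 0 and the median was -0.38 against 0.000851 over all tested genes. With the replicate block 3 of them were called lower, beside 0.623% of all tested genes, and Pou4f1, which encodes Brn3a, was 1 of these. Pou4f1, chosen after its values were seen, was at 37.2, 30.1 and 31.4 CPM in SHAM and at 20.4, 18.6 and 21.7 CPM in GB20 (log2 fold change -0.70 ± 0.15, adjusted p = 0.066, and 0.0017 with the block).

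Of 25 tested RGC markers 5 were called lower, beside 0.18% of all tested genes, and 0 higher. The median log2 fold change was -0.455. The 5 were Scn4b, Chrna6, Uchl1, Thy1 and Rbpms2. This list, like the others, was written with earlier results of these data known. The study that reported the data names Scn4b among the largest falls of MOG vs. SHAM, which shares the SHAM libraries. Counts of called members beside the share of all genes are thus a description and not a test. For 19 of the 25 all GB20 libraries lay under all SHAM libraries, beside 7.09% of all tested genes. Chrna6 encodes a nicotinic receptor subunit of RGC axons and was at 103, 92.7 and 95.1 CPM in SHAM and at 70.8, 68.9 and 72.1 CPM in GB20 (log2 fold change -0.45 ± 0.08, adjusted p = 0.0076). Thy1, a surface glycoprotein widely used to label RGCs, was at 163, 161 and 149 CPM in SHAM and at 116, 115 and 115 CPM in GB20 (-0.45 ± 0.09, adjusted p = 0.042). For both genes the GB20 libraries lay within a few CPM of each other, under every SHAM library.

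Uchl1, an abundant neuronal ubiquitin hydrolase, fell by 27.5% (log2 fold change -0.46 ± 0.09, adjusted p = 0.026), and Rbpms2, an RNA-binding protein specific to RGCs within the retina, fell by 36.2% (-0.65 ± 0.14, adjusted p = 0.045). Exons of Uchl1 overlap an antisense gene over 18.1% of their length, and since the strand setting of the counting is not given, some of its reads could belong to that gene. The other 20 markers did not pass the test, among them Sncg (-0.50 ± 0.11, adjusted p = 0.063) and Slc17a6, the vesicular glutamate transporter of RGCs (-0.56 ± 0.12, adjusted p = 0.066). With the replicate block 16 of the 25 were called lower, including Sncg and Slc17a6, against 0.623% of all tested genes called lower in that fit. All members together summed to between 1449 and 1628 CPM in SHAM and between 1197 and 1212 CPM in GB20. The number of markers called was 1 without SHAM replicate 1 or without GB20 replicate 1, 2 without GB20 replicate 2, 3 when GB20 replicate 3 or either of MOG replicates 2 and 3 was left out, 8 without MOG replicate 1 or GV16 replicate 3, and 14 without GV16 replicate 1. Thy1 and Rbpms2 kept their calls in 3 and 4 of the 12 such fits, and Uchl1 lost its call without SHAM replicate 1 (-0.37), GB20 replicate 1 (-0.40) or GB20 replicate 2 (-0.50).

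Neurofilament genes showed the lowest median of the lists examined, at a log2 fold change of -0.696 over 5 genes. Nefl, the light chain (chr14:68083863-68089095, + strand), fell from 293, 284 and 263 CPM to 178, 168 and 172 CPM (log2 fold change -0.70 ± 0.10, adjusted p = 0.0030). Nefh, the heavy chain (chr11:4938754-4948064, - strand), fell from 108, 93.1 and 91.8 CPM to 54.9, 54.7 and 62.4 CPM (-0.77 ± 0.11, adjusted p = 0.0037). Ina, which encodes alpha-internexin (chr19:47014698-47025327, + strand), fell from 104, 98.5 and 90.4 CPM to 59.3, 72.2 and 74.5 CPM (-0.51 ± 0.09, adjusted p = 0.013). Per length the order of levels in SHAM was Nefl (82.1 FPKM), Ina (29.9 FPKM), then Nefm (24.4 ± 2.26 FPKM, SD, n = 3) and Nefh (24.2 ± 2.17 FPKM), which did not differ beyond their spread. In GB20 the same genes stood at 50.8, 21.1, 12.9 and 14.3 FPKM.

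Nefm, the medium chain, was chosen after its values were seen. It was at 158, 134 and 136 CPM in SHAM and at 66.1, 77.2 and 82.8 CPM in GB20, a larger difference than that of Nefl (log2 fold change -0.92 ± 0.17), yet with an adjusted p of 0.052 it was not a DEG. It was called with the replicate block (adjusted p = 0.032). Nefl and Nefm lie on opposite strands and their exons overlap, for Nefl over 32.8% of its exon length, so that some reads could have been assigned to either gene. Exons of Ina overlap another gene over 14.1% of their length. The summed level of the 5 genes was 585 to 667 CPM in SHAM and 362 to 395 CPM in GB20. Leaving out GB20 replicate 1 ended the call of Nefh (-0.74) and of Ina (-0.41), and leaving out SHAM replicate 1 ended that of Ina (-0.46).

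**Figure D2:**
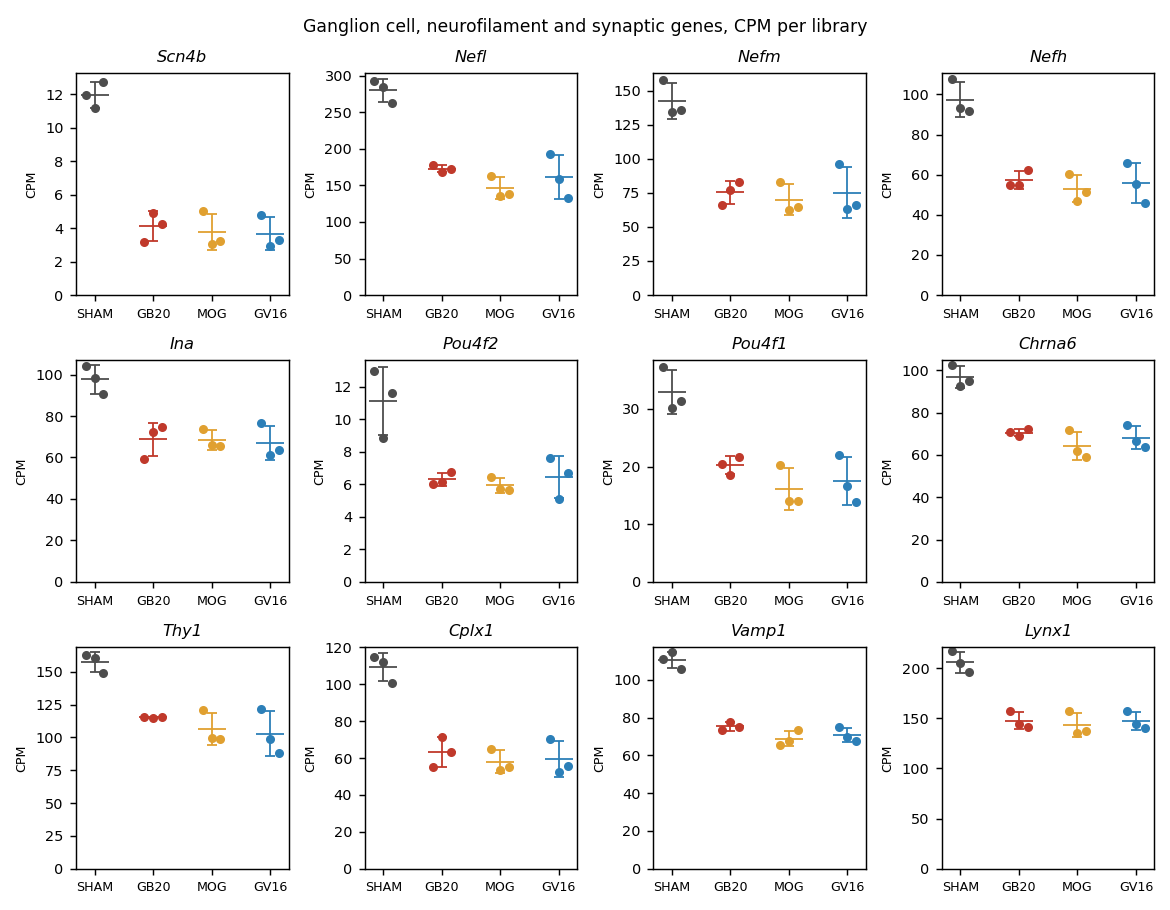
CPM per library (y axis, from 0) of 12 neuronal genes in SHAM, GB20, MOG and GV16, with the 3 libraries of a group as points, the mean as a horizontal line and the SD as bars. In each panel every GB20 point lies under every SHAM point, as for Nefl with 168 to 178 CPM against 263 to 293 CPM.

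Genes of axonal excitability and transmitter release were among the falls. Voltage-gated sodium channel subunits, to which Scn4b belongs, had a median log2 fold change of -0.13 over 12 tested genes. Of 18 axonal potassium channel genes 1 was called lower, beside 0.18% of all tested genes, and the median was -0.207. This was Kcnip4, a cytoplasmic partner of Kv4 channels (-0.46 ± 0.09, adjusted p = 0.019). Lynx1, a membrane-bound modulator of nicotinic receptors, fell from 217, 205 and 196 CPM to 157, 144 and 142 CPM (-0.48 ± 0.08, adjusted p = 0.0033). With Chrna6 it made 2 of 10 nicotinic receptor genes lower, 4 with the replicate block, beside 0.18% and 0.623% of all tested genes. The list summed to 477 to 515 CPM in SHAM and 365 to 375 CPM in GB20. Among the pore-forming sodium channel genes, Scn8a was at -0.02 (adjusted p = 0.98) and Scn2a at -0.23 (0.47). Scn1a was at -0.36 (adjusted p = 0.12, and 0.038 with the block), and these were chosen after their values were seen. Of the 12 tested sodium channel subunit genes 8 had a log2 fold change under 0 and 4 above 0.

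Cplx1, Vamp1 and Syt2 were called lower among 27 synaptic vesicle genes, beside 0.18% of all tested genes. Cplx1, which encodes complexin-1, a clamp of fast transmitter release (chr5:108518554-108550024, - strand), was at 115, 112 and 101 CPM in SHAM and at 55.2, 71.4 and 63.3 CPM in GB20 (log2 fold change -0.79 ± 0.11, adjusted p = 0.0016). Vamp1, a vesicle fusion protein (chr6:125215551-125245964, + strand), fell from 111, 115 and 106 CPM to 73.4, 77.8 and 74.9 CPM (-0.55 ± 0.07, adjusted p = 0.00028). Syt2, a fast calcium sensor, fell by 32.7% (-0.57 ± 0.12, adjusted p = 0.040). The isoforms that most retinal neurons use were close to 0, with Vamp2 at -0.15 (adjusted p = 0.65), Syt1 at -0.13 (0.70) and Snap25 at -0.16 (0.55), and these were chosen after their values were seen. The list median was -0.131, and 6 of the 27 were lower with the replicate block, beside 0.623% of all tested genes. The Syt2 call was kept in 6 of the 12 fits that left out 1 library (log2 fold change -0.49 without SHAM replicate 1, -0.50 without GB20 replicate 1), and 5 of the list were called without GV16 replicate 1.

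The remaining lower DEGs were in no list. Slc29a4, a monoamine transporter of the plasma membrane, fell by 39.4% (log2 fold change -0.72 ± 0.11, adjusted p = 0.0016), and Tmem163, a zinc transporter of vesicles, fell by 39.7% (-0.73 ± 0.13, adjusted p = 0.013). Atp2b3, a calcium pump, fell from 31.3, 21.6 and 30.2 CPM to 16.7, 17.7 and 19 CPM (-0.64 ± 0.12, adjusted p = 0.013), with SHAM replicate 2 again the SHAM library nearest to GB20. Smaller changes of -0.61 to -0.36 were found for the growth factor gene Fgf1, the secreted synaptic proteins Lgi3 and Olfm1, the transcriptional repressor Scrt1, the small GTPase Rasd2, the adhesion gene Pcdh7, the matrix proteoglycan Spock2, the N-acetylaspartate synthase Nat8l, the neuronal differentiation gene Cend1, and Mfsd6 and Tmem132e. Espn, an actin-bundling protein, and Gaa, the lysosomal acid alpha-glucosidase, fell by 20.8% and 19.1%. Pvalb was the only one of 25 amacrine and horizontal cell genes called, beside 0.18% of all tested genes called lower, and the list median was -0.0971. With the replicate block Calb2, which RGCs also express, was called as well.

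**Figure D3:**
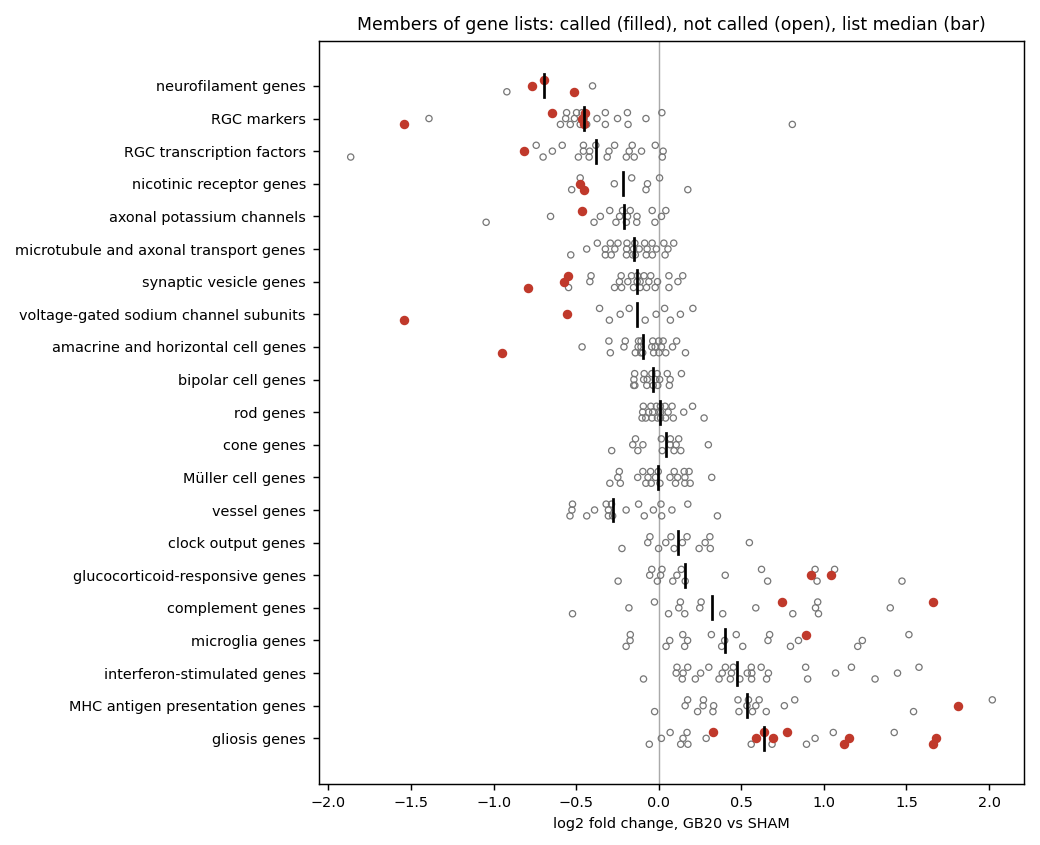
Log2 fold change of GB20 vs. SHAM (x axis) of each tested member of 21 gene lists (y axis), with called members as filled red points, the others as open points and the list median as a black bar. Medians run from -0.696 for neurofilament genes to 0.639 for gliosis genes, and those of rod, cone and bipolar genes lie within 0.05 of 0.

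Ecel1, an endopeptidase induced in neurons by nerve injury (chr1:87147655-87156521, - strand), had the smallest p of all genes. It stood at 0.727, 0.941 and 0.777 CPM in SHAM and at 4.33, 6.14 and 5.42 CPM in GB20, which was 6.42-fold higher (log2 fold change 2.68 ± 0.25, adjusted p = 6.2e-06). Even so, the GB20 values rested on only 84 to 101 counts per library, and the SHAM values on 12 to 16. Tnnt2, which encodes cardiac troponin T (chr1:135836354-135852260, + strand), rose from 2.06, 2.71 and 2.05 CPM to 6.90, 7.48 and 6.21 CPM (1.59 ± 0.20, adjusted p = 0.00028). Lad1, whose product ladinin is a filament-associated protein (chr1:135818598-135833342, + strand), is the neighbour of Tnnt2 on the same strand and rose from 1.39, 2.47 and 2.27 CPM to 6.95, 6.08 and 5.30 CPM (1.57 ± 0.21, adjusted p = 0.00044). Groups were far apart for each of these genes, and each was called in all alternatives run.

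Ecel1 and Tnnt2 were the called members of 22 tested axon injury genes, whose median was 0.084, beside 0.164% of all tested genes called higher (0.372% with the replicate block). The study that reported the data names both among the largest rises of MOG vs. SHAM, and this list was written with that known. Their calls are therefore no independent support for the list. Transcription factors of this list that did not pass included Atf3 at 0.16 (adjusted p = 0.90), Jun at -0.05 (0.92), Sox11 at 0.30 (0.77) and Atf5 at -0.27 (0.48), chosen after their values were seen. With the replicate block 4 were called, the added ones being Mmp12, a macrophage metalloelastase (0.121, 0.470 and 0.0555 CPM in SHAM, 0.670, 1.89 and 0.975 CPM in GB20, adjusted p = 0.062, and 0.039 with the block), and Sprr1a. Sprr1a, which growing axons express after injury, had 0 counts in the 3 SHAM libraries and 12, 5 and 4 counts in GB20. With 3 counts taken as the upper limit for the SHAM libraries together, it was at least 6.9-fold higher (adjusted p = 0.094, and 0.040 with the block).

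Gliosis genes held the most calls of any list, with 9 of 23 tested members higher, 0 lower and a median log2 fold change of 0.639, beside 0.164% of all tested genes called higher. For 14 of the 23 all GB20 libraries lay above all SHAM libraries, beside 5.66% of all tested genes. Gfap, the intermediate filament of astrocytes and of reactive Müller cells (chr11:102887336-102900912, - strand), was at 20.6, 26.8 and 21.9 CPM in SHAM and at 62.5, 53.0 and 38.2 CPM in GB20 (log2 fold change 1.15 ± 0.17, adjusted p = 0.013). Serpina3n, a secreted protease inhibitor of reactive astrocytes, rose from 4.06, 6.76 and 5.11 CPM to 17.8, 19.7 and 13.6 CPM (1.68 ± 0.28, adjusted p = 0.035). In both genes GB20 replicate 3 was the lowest of GB20, and both calls were lost with the replicate block (adjusted p = 0.068 for Gfap and 0.077 for Serpina3n). The Gfap call also ended when SHAM replicate 1 (1.07), SHAM replicate 3 (1.11) or GB20 replicate 2 (1.13) was left out. C4b, the complement component C4 (chr17:34728380-34743882, - strand), rose from 5.93, 8.76 and 5.94 CPM to 23.2, 21.2 and 20.7 CPM (1.66 ± 0.22, adjusted p = 0.0049). Fgf2, a survival factor for retinal neurons that Müller cells release, rose from 30.5, 29.9 and 28.9 CPM to 56.0, 49.2 and 47.9 CPM (0.78 ± 0.10, adjusted p = 0.00033). Fgf2 shares 13.2% of its exon length with overlapping genes.

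Signalling genes of gliosis were among these 9. Stat3, the transcription factor downstream of gp130 cytokines, rose from 58.4, 69.7 and 71.3 CPM to 93.3, 108 and 99.2 CPM (log2 fold change 0.59 ± 0.10, adjusted p = 0.0049), and its call ended without SHAM replicate 1 (0.50). Osmr, the oncostatin M receptor, rose from 7.26, 6.41 and 7.10 CPM to 11.8, 11.0 and 10.8 CPM (0.69 ± 0.15, adjusted p = 0.040). Cd44, a hyaluronan receptor, S100a6, a calcium-binding protein, and Cp, the ferroxidase ceruloplasmin, rose by 0.64, 1.12 and 0.33. The cytokine gene Lif (0.69, adjusted p = 0.71), the feedback inhibitor Socs3 (0.18, adjusted p = 0.89) and the shared receptor subunit Il6st (0.07, adjusted p = 0.90) did not pass the test, and they were chosen after their values were seen. The summed level of the list was 660 to 674 CPM in SHAM and 876 to 913 CPM in GB20. Called members numbered 1 without SHAM replicate 1, 2 without SHAM replicate 3, 4 without GB20 replicate 1, 5 without GB20 replicate 2 and 7 to 10 without any other library, and 8 with the replicate block. Müller cell identity genes gave 0 calls of 23 (median -0.00287, 5 with an unadjusted p under 0.05, 0 by DESeq2 or limma-voom, 1 higher and 1 lower with the block on the 6 libraries), with Rlbp1 at -0.25 ± 0.08 (adjusted p = 0.22) and Car14 at 0.32 ± 0.09 (adjusted p = 0.15, and 0.032 with the block).

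**Figure D4:**
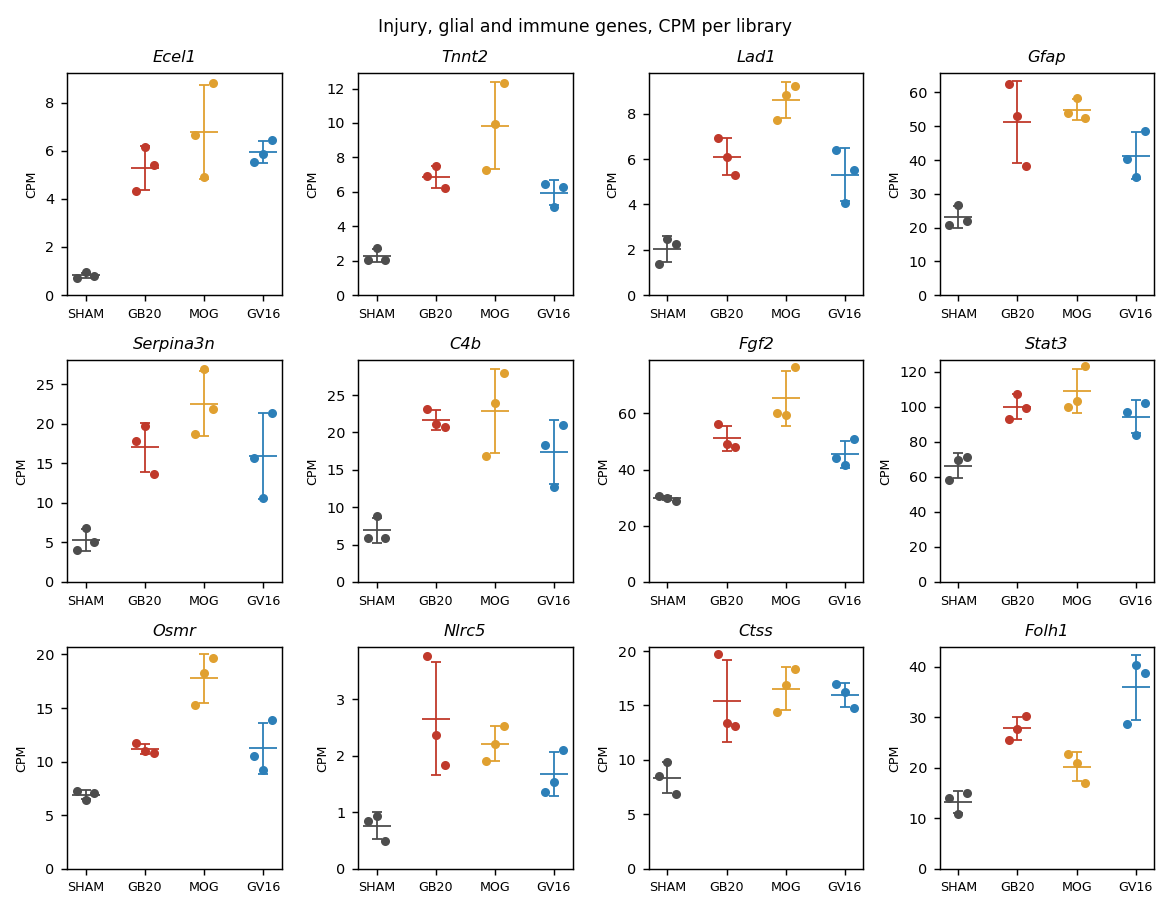
CPM per library (y axis, from 0) of 12 genes that rose, in SHAM, GB20, MOG and GV16, with the 3 libraries of a group as points, the mean as a horizontal line and the SD as bars. GB20 points lie above every SHAM point in each panel, and the GB20 points of Osmr (10.8 to 11.8 CPM) also lie under those of MOG (15.3 to 19.7 CPM).

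Few immune genes were called. Nlrc5, the transactivator of MHC class I genes (chr8:94434356-94527272, + strand), rose from 0.848, 0.941 and 0.499 CPM to 3.76, 2.37 and 1.83 CPM (log2 fold change 1.81 ± 0.32, adjusted p = 0.0087). GB20 replicate 1 was the highest, and the call ended without it (1.46), without SHAM replicate 1 (1.89) and without SHAM replicate 3 (1.57). No other of the 21 MHC antigen presentation genes passed by edgeR without the block, beside 0.164% of all tested genes called higher. DESeq2 called 2 of the list higher on the 12 libraries and 2 on the 6, and limma-voom called 1. With the block on the 6 libraries edgeR called 3 higher, beside 1.25% of all tested genes in that fit. Of the 21, 20 had a log2 fold change above 0 and the median was 0.534. For 6 all GB20 libraries lay above all SHAM libraries, beside 5.66% of all tested genes. H2-K1 was at 0.53 (adjusted p = 0.20), B2m at 0.82 (0.29) and Tap1 at 0.33 (0.82), all chosen after their values were seen. Serping1, the C1 inhibitor, rose by 0.74 ± 0.16 (adjusted p = 0.045). With C4b it made 2 of 18 complement genes called higher, beside 0.164% of all tested genes. The count of this list was 0 without SHAM replicate 1 or SHAM replicate 3, 1 when any of MOG replicates 2 and 3 and GB20 replicates 1 and 2 was left out, and 4 without SHAM replicate 2.

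Ctss, the lysosomal protease cathepsin S, was the only one of 21 microglia genes called higher, beside 0.164% of all tested genes. It rose from 8.48, 9.76 and 6.88 CPM to 19.7, 13.4 and 13.2 CPM (log2 fold change 0.89 ± 0.16, adjusted p = 0.0096). Its GB20 values were led by replicate 1, and its call ended without GB20 replicate 1 (0.67), SHAM replicate 1 (0.90) or SHAM replicate 3 (0.76). The microglia list had a median of 0.399 and summed to 64.4 to 71.7 CPM in SHAM and 83.6 to 99.2 CPM in GB20. Of the 21 tested, 18 had a log2 fold change above 0 and 3 under 0. For 9 of them all GB20 libraries lay above all SHAM libraries, beside 5.66% of all tested genes. Among genes of resting microglia, P2ry12 (0.16, adjusted p = 0.93), Cx3cr1 (0.17, 0.89) and Tmem119 (0.38, 0.70) did not pass. Neither did Csf1r (0.51, 0.12), Siglech (0.67, 0.38) and Sall1 (0.80, 0.32), whose libraries did not overlap between groups. All of these were chosen after their values were seen. Of 30 tested interferon-stimulated genes 0 were called by edgeR without the block (11 with an unadjusted p under 0.05, all higher, 2 by DESeq2 on the 12 libraries, 1 by DESeq2 on the 6 and 0 by limma-voom). With the block on the 6 libraries 7 were called higher, beside 1.25% of all tested genes in that fit. The median was 0.472, and 29 of the 30 had a log2 fold change above 0. For 8 of the 30 all GB20 libraries lay above all SHAM libraries, beside 5.66% of all tested genes. The interferon-stimulated genes with the smallest p were Eif2ak2, a kinase that senses double-stranded RNA (0.62 ± 0.16, adjusted p = 0.10), and Trim30a (1.45 ± 0.38, adjusted p = 0.11, and 0.040 with the block). Of 12 T cell genes, 2 were expressed highly enough to be tested, Ptprc (1.04 ± 0.39, adjusted p = 0.37) and Lck (0.70 ± 0.41, adjusted p = 0.67), and the 12 summed to 1.51 to 2.28 CPM in SHAM and 2.92 to 4.07 CPM in GB20. The part of infiltrating cells in the differences above was not tested.

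Some higher DEGs are known to respond to glucocorticoids. Hif3a, a hypoxia-inducible factor of the inhibitory kind, rose from 6.30, 5.76 and 8.27 CPM to 11.6, 12.3 and 14.8 CPM (log2 fold change 0.92 ± 0.16, adjusted p = 0.0067), and Plin4, a lipid droplet coat protein, rose from 1.33, 1.41 and 1.997 CPM to 3.50, 2.98 and 3.35 CPM (1.04 ± 0.22, adjusted p = 0.042). They were the called members of 19 glucocorticoid-responsive genes, beside 0.164% of all tested genes called higher, and 5 were called with the replicate block, beside 0.372%, the others being Fkbp5, Zbtb16 and Mt1. The list median was 0.161, and 15 of the 19 had a log2 fold change above 0. For 9 of the 19 all GB20 libraries lay above all SHAM libraries, beside 5.66% of all tested genes. DESeq2 on the 12 libraries called 5 higher, where it called 69 of 34538 genes higher, and limma-voom called 1. Fkbp5 was at 0.40 (adjusted p = 0.094, and 0.040 with the block) and Zbtb16 at 0.96 (0.12, and 0.037 with the block). Tsc22d3 (0.02, adjusted p = 0.98) and Sgk1 (0.01, 0.99) did not pass. All of these were chosen after their values were seen. Fam107a, an actin-binding protein of astrocytes that was in no list, rose from 11.1, 10.9 and 9.88 CPM to 16.6, 25.1 and 19.5 CPM (0.94 ± 0.15, adjusted p = 0.0067). Without SHAM replicate 1 the calls of Hif3a (0.87), Plin4 (0.94) and Fam107a (0.97) ended, and Plin4 was called in 3 of the 12 fits that left out 1 library.

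Folh1 and Nat8l belong to the metabolism of the dipeptide N-acetylaspartylglutamate and moved in opposite directions. Folh1, the peptidase that cleaves it (chr7:86718977-86775943, - strand), rose from 14.0, 10.8 and 14.9 CPM to 25.6, 27.7 and 30.2 CPM (log2 fold change 1.07 ± 0.14, adjusted p = 0.0010). Nat8l, which makes its precursor N-acetylaspartate, fell from 71.99, 67.98 and 73.7 CPM to 52.6, 58.7 and 54.9 CPM (-0.36 ± 0.08, adjusted p = 0.049). For both genes the groups were separate, but Nat8l kept its call in only 4 of the 12 fits that left out 1 library, against 12 of 12 for Folh1. Tc2n, a C2-domain protein, had the largest fitted rise of the DEGs (2.96 ± 0.53, adjusted p = 0.0093) at under 1 CPM on average in each group, with 0.0605, 0.0588 and 0.222 CPM in SHAM and 1.08, 1.03 and 0.731 CPM in GB20. Rn7sk, the 7SK RNA that restrains transcription elongation and has no poly(A) tail, was at 1.64, 1.94 and 1.498 CPM in SHAM and at 7.11, 4.07 and 3.29 CPM in GB20 (1.52 ± 0.29, adjusted p = 0.020), with the highest value in GB20 replicate 1.

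Further higher DEGs were Etnppl, an astrocyte enzyme of phosphoethanolamine breakdown (0.87 ± 0.16, adjusted p = 0.043), the ligand-activated transcription factor Ahr (0.39 ± 0.08, adjusted p = 0.042), the photoreceptor repressor Samd7 (0.36 ± 0.08, adjusted p = 0.042), the transcription factor Rfx2 (0.73 ± 0.16, adjusted p = 0.045) and the sialyltransferase St3gal4 (0.45 ± 0.10, adjusted p = 0.045). Lrrc2 and Ubap1l rose by 0.47 and 0.42, and Gm5297, a transcribed pseudogene, and Gm44981 rose by 1.10 and 1.07. Their libraries did not overlap between groups. Gm44981 overlaps exons of Slc6a6, and reads of Gm5297 could belong to its parent gene, so that both are uncertain.

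By edgeR without the block, 27 of the 41 lists held no called gene, among them those of rods, cones, bipolar cells, vessels, cell death and energy metabolism. Of 24 glycolysis genes 1 was called by DESeq2 on the 6 libraries and 1 with the block on the 6 libraries, and of 19 vessel genes 1 was called lower with that block, as were 1 cone gene higher and 1 lower. Microtubule and axonal transport genes had a median of -0.153 over 27 genes, with Kif5a, a neuronal kinesin, at -0.37 ± 0.08 (adjusted p = 0.053, and 0.0076 with the block) and Tubb3, the neuronal beta-tubulin, at -0.32 ± 0.07 (adjusted p = 0.061, and 0.013 with the block). In this list 0 were called by edgeR without the block, and 12 had an unadjusted p under 0.05, all lower, beside 9.06% of all tested genes. For 9 of the 27 all GB20 libraries lay under all SHAM libraries, beside 7.09% of all tested genes. With the replicate block 5 were called lower, beside 0.623% of all tested genes. DESeq2 on the 12 libraries called 3 lower, where it called 83 of 34538 genes lower, and limma-voom called 0. With the block on the 6 libraries 9 were called lower, beside 1.37% of all tested genes in that fit. Of 20 apoptosis regulators 0 were called (1 with an unadjusted p under 0.05, 0 by DESeq2 or limma-voom), with Hrk at 0.70 ± 0.27 (adjusted p = 0.41) and Mcl1 at 0.12 ± 0.07 (adjusted p = 0.68).

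Photoreceptor and bipolar genes stayed near 0 in median (rods 0.00572, cones 0.0452, bipolar cells -0.0376). Of 22 rod genes 0 had an unadjusted p under 0.05, with Guca1a at 0.20 ± 0.11 and Rp1 at 0.15 ± 0.09. Of 14 cone genes 3 did, with the green opsin gene Opn1mw at 0.30 ± 0.08 (adjusted p = 0.12) and the blue opsin gene Opn1sw at -0.16 ± 0.07 (adjusted p = 0.49), and 1 cone gene was called by DESeq2. Of 18 bipolar genes 2 did, with Otx2 at 0.14 ± 0.07 and Prkca at -0.15 ± 0.07. The genes of the circadian clock gave 0 calls by edgeR without the block among 14 outputs and 8 genes of the Bmal1 arm. Of the 14 outputs, whose median was 0.118, 8 had an unadjusted p under 0.05, beside 9.06% of all tested genes. For 6 all GB20 libraries lay above all SHAM libraries and for 1 under them, beside 5.66% and 7.09% of all tested genes. The outputs summed to 1907 to 2001 CPM in SHAM and 2025 to 2192 CPM in GB20. DESeq2 on the 6 libraries called 1 and limma-voom 0. With the block on the 6 libraries 4 were called higher and 1 lower, beside 1.25% and 1.37% of all tested genes. Of the Bmal1 arm 0 had an unadjusted p under 0.05. Usp2, a rhythmic deubiquitinase, was at 0.55 ± 0.16 (adjusted p = 0.23, and 0.010 with the block), Cry1 at 0.24 ± 0.07 (adjusted p = 0.18) and Arntl2 at 0.21 ± 0.13. Dopamine and melatonin genes gave Drd2 at -0.28 ± 0.09 (adjusted p = 0.24) and Th, the enzyme of dopamine synthesis, at -0.48 ± 0.21 (adjusted p = 0.48).

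Metallothionein and zinc transporter genes had Mt1 at 0.66 ± 0.15 (adjusted p = 0.083, and 0.00018 with the block) and Mt2 at 1.47 ± 0.57 (adjusted p = 0.40). Immediate-early genes had Npas4 at -0.35 ± 0.17 and Egr4 at -0.85 ± 0.47 (adjusted p = 0.55 and 0.65). Matrix genes had the gelatinase Mmp9 at -0.57 ± 0.13 (adjusted p = 0.063, and 0.034 with the block) and its inhibitor family member Timp3 at 0.36 ± 0.09 (adjusted p = 0.077, and 0.027 with the block). Stress response genes had Asns at -0.36 ± 0.09 (adjusted p = 0.074, and 0.018 with the block) and Sesn2 at -0.26 ± 0.09, and chaperone genes had Hsph1 at -0.33 ± 0.11 and Hsp90ab1 at -0.23 ± 0.08. Cholesterol synthesis genes had a median of -0.116, with Hmgcs1 at -0.30 ± 0.09 (adjusted p = 0.15). Of the 24, 21 had a log2 fold change under 0, and 6 had all GB20 libraries under all SHAM libraries, beside 7.09% of all tested genes. The list summed to 1381 to 1505 CPM in SHAM and 1313 to 1323 CPM in GB20. The replicate block called 1 lower, beside 0.623% of all tested genes. With the block on the 6 libraries 1 was called higher and 4 lower, beside 1.25% and 1.37%. Values of glycolysis (Hk2 0.36 ± 0.12, Eno2 -0.19 ± 0.07), cilia (Bbs5 0.20 ± 0.08, Kif17 0.34 ± 0.14), ribosomes (Rps12 0.25 ± 0.10, Rpl22 0.19 ± 0.09) and the respiratory chain (Ndufb2 -0.18 ± 0.08, Cox5a -0.18 ± 0.09, mt-Co1 0.13 ± 0.08, mt-Nd1 0.11 ± 0.09) all had adjusted p-values of 0.29 or more.

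Tissues next to the retina were examined through their markers. Pigment epithelium and choroid genes summed to 135 to 167 CPM in SHAM and 187 to 203 CPM in GB20, all 14 tested had a log2 fold change above 0 and the median was 0.397. None was a DEG by edgeR without the block (7 with an unadjusted p under 0.05, all higher, 1 by DESeq2 on the 12 libraries and 3 on the 6, 0 by limma-voom). With the block on the 6 libraries 4 were called higher, beside 1.25% of all tested genes in that fit. Rpe65, the isomerase of the visual cycle, was at 0.484, 1.35 and 1.11 CPM in SHAM and 2.63, 3.28 and 2.68 CPM in GB20 (1.53 ± 0.48, adjusted p = 0.28, and 0.014 with the block), and Oca2 was at 1.42 ± 0.57 (adjusted p = 0.44). The part of pigment epithelium RNA in other rises was not tested. Lens genes summed to 22.5 to 44.8 CPM in SHAM and 25.2 to 40.3 CPM in GB20, with Cryge and Crygf at 0 in all 6 libraries, Cryab at 0.22 ± 0.12 and Crybb3 at -0.43 ± 0.46. Erythrocyte genes summed to 80.7 to 100.2 CPM and 94.5 to 97.0 CPM, with Alas2 at 0.40 ± 0.31 and Bpgm at 0.07 ± 0.08. Myelin genes summed to 69.4 to 74.1 CPM and 64.0 to 71.0 CPM, with Olig2 at 0, Mbp at -0.11 ± 0.12 and Cnp at -0.08 ± 0.10. Vessel genes had a median of -0.279, with the endothelial receptor genes Tek at -0.53 ± 0.18 (adjusted p = 0.29) and Tie1 at -0.54 ± 0.22 (adjusted p = 0.44).

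The levels of the DEGs in the other immunized groups were set beside those in GB20. MOG and GV16 comparisons with SHAM use the same SHAM libraries, and so only their values are given. MOG vs. SHAM gave 1.34% of the tested genes as DEGs (0.568% higher, 0.771% lower) and GV16 vs. SHAM 0.656% (0.224% higher, 0.432% lower). Scn4b was lower than SHAM by -1.54 in GB20, -1.65 in MOG and -1.70 in GV16, and Nefl by -0.70, -0.94 and -0.80. Ecel1 was higher by 2.68, 3.05 and 2.85, Gfap by 1.15, 1.25 and 0.84, and Folh1 by 1.07, 0.62 and 1.44. Espn, at -0.34 in GB20 and -0.39 in GV16, was at -0.06 in MOG (adjusted p = 0.76), and St3gal4, at 0.45 in GB20, was at 0.06 in MOG (adjusted p = 0.85). These distances can be told apart only by the direct contrast of the groups, which was GB20 vs. MOG.

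In GB20 vs. MOG 44 genes were DEGs (0.24%), and 1 of the 63 DEGs of GB20 vs. SHAM was among them, while 17 of the 63 had an unadjusted p under 0.05, beside 8% of all tested genes. This was Osmr, which was at 11.8, 11.0 and 10.8 CPM in GB20 and at 15.3, 18.3 and 19.7 CPM in MOG (log2 fold change -0.67 ± 0.13, adjusted p = 0.030). Osmr in GB20 was thus above SHAM and under MOG, without overlap on either side. For Espn and St3gal4 the direct contrast gave -0.28 ± 0.07 (adjusted p = 0.18) and 0.39 ± 0.10 (adjusted p = 0.15). In GB20 vs. GV16 1 gene was a DEG (0.00546%), and 0 of the 63 were (6 with an unadjusted p under 0.05, beside 2.93% of all tested genes, by edgeR, the only test run on this contrast).

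Gpnmb, a glycoprotein of pigment cells and activated macrophages, was that gene and was chosen after its values were seen. It was at 3.39, 2.65 and 3.22 CPM in SHAM, at 3.30, 2.80 and 3.59 CPM in GB20, at 9.23, 12.1 and 11.0 CPM in MOG and at 6.95, 9.13 and 6.75 CPM in GV16. GB20 lay within the range of SHAM or next to it (log2 fold change 0.07 ± 0.19, adjusted p = 0.97), and under both other immunized groups (-1.73 ± 0.17, adjusted p = 5.5e-06 against MOG, and -1.23 ± 0.17, adjusted p = 0.0070 against GV16).

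Promoter sequence was searched for short motifs in the 250 bases before RefSeq gene starts (GRCm38.p6), which matched 44 of the 63 DEGs by symbol, 23 higher and 21 lower. The glucocorticoid receptor motif ACANNNTGT, which reads alike on both strands, is in the window of 6.76% of 27025 genes. It was found for 4 of the 23 higher DEGs (Ctss, Fam107a, Folh1 and Serpina3n) and for 3 of the 21 lower DEGs (Kcnip4, Olfm1 and Syt2), and had no match in the windows of Hif3a and Plin4. The windows of 3 of the 4 higher DEGs are shown as examples of the match, with the motif in capitals, and not for the strength of their calls. They were chosen after the matches to this and the other motifs had been seen, and a match does not show binding.
Serpina3n, chr12:104406458-104406707, + strand: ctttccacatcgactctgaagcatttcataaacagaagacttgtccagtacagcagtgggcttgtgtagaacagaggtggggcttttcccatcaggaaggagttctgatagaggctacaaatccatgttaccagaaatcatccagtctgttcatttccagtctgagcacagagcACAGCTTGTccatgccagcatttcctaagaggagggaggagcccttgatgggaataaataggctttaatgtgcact
Folh1, chr7:86775865-86776114, - strand: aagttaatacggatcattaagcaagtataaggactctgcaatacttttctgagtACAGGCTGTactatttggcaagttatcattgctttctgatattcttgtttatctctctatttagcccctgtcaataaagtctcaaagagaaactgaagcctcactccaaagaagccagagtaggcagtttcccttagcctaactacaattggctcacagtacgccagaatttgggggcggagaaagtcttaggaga
Fam107a, chr14:8309780-8310029, - strand: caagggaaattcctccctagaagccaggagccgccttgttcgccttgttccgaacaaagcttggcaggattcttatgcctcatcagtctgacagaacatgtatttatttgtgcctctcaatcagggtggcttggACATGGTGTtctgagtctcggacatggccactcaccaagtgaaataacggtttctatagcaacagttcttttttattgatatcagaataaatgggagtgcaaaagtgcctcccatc

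Other motifs were searched on both strands. The STAT motif TTCNNNGAA (8.13% of genes) was in 1 higher DEG window, that of Samd7, and 0 lower ones, the AP-1 motif TGANTCA (7.82%) in 1 and 2, the cyclic AMP motif TGACGTCA (1.77%) in 0 and 0 and its short form TGACG (19.8%) in 4 and 2. The E-box CACGTG (6.86%) was in 0 and 2, the hypoxia motif ACGTG (18.5%), which overlaps it, in 2 and 4, the TATA box TATAAA (14.3%) in 3 and 1, and the GC box GGGCGG (35.4%) in 9 and 11. The metal response motif, TGCACNC or TGCGCNC (23.8%), was in 8 and 10.

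How far the count of DEGs rested on the fit is shown by setting. The 11 genes Scn4b, Nefl, Ecel1, Tnnt2, Lynx1, Fgf2, Vamp1, Cplx1, Lad1, Slc29a4 and Folh1 were DEGs in all 25 alternatives, which included leaving out each of the 12 libraries in turn. With the replicate block on the 6 libraries alone, 2.63% of the tested genes were DEGs, 1.25% higher and 1.37% lower, among them all 63.

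**Figure D5:**
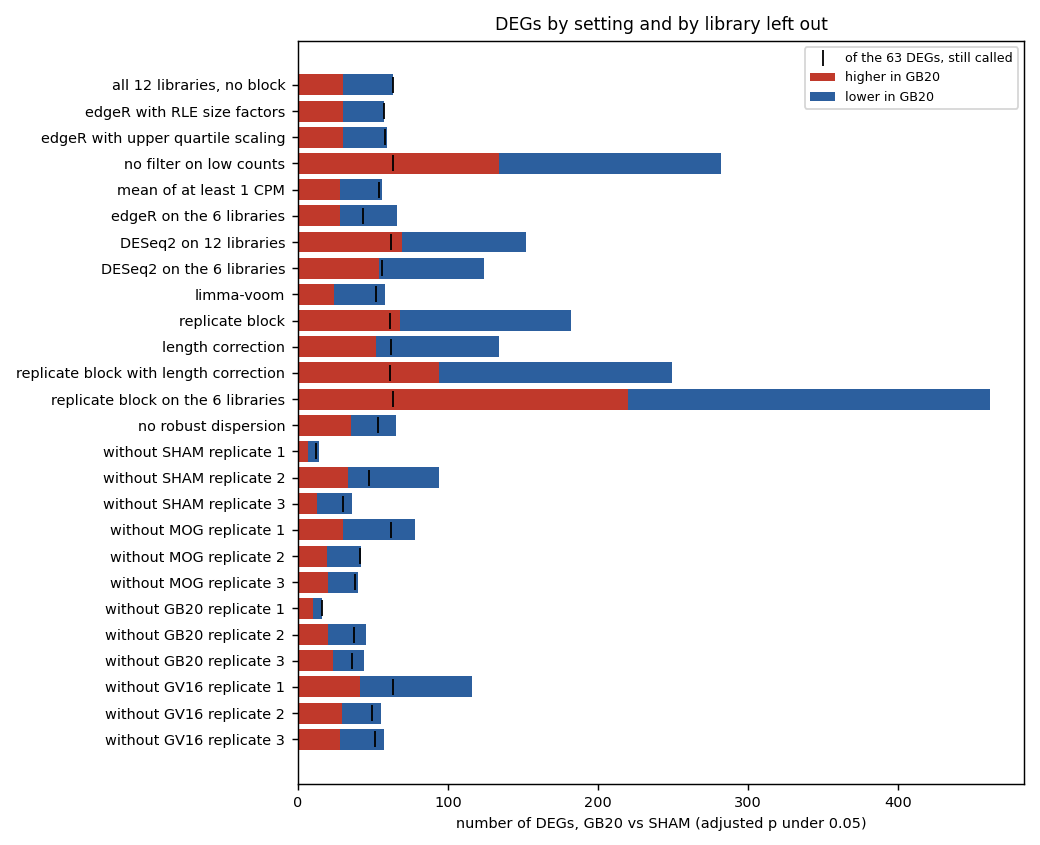
Number of DEGs of GB20 vs. SHAM (x axis) in each setting and with each library left out (y axis), split into higher (red) and lower (blue) in GB20, with a black tick for how many of the 63 DEGs were still called. The count runs from 14 without SHAM replicate 1 to 461 with the replicate block on the 6 libraries.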

How the data were processed

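Poly(A) RNA of retinas was sequenced by the authors, who aligned reads with HISAT2 2.0.5 to mm10 (per the labels' processing notes) and counted fragments per gene with FeatureCounts. The strand setting is not given in the sources used here. The deposited tables hold raw counts per gene, not normalized, and FPKM values that the authors calculated from gene length and depth. FPKM was used only to compare levels between genes.

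Counts of the 12 libraries (4 groups of 3) were filtered by expression, scaled by TMM and fitted by edgeR 4.0.16 with robust quasi-likelihood dispersions and 8 residual degrees of freedom (R 4.3.3), and the contrast of GB20 with SHAM was adjusted over 18299 genes. CPM are counts divided by the TMM-scaled library size. DESeq2 1.42.0, limma-voom 3.58.1, other scalings, filters, a length correction, a replicate block and the omission of each library were alternatives. The scripts were tested on simulated data. Gene models were GENCODE vM21, and promoters were RefSeq GRCm38.p6.

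Same-numbered GB20 and SHAM libraries, whose numbers come from the labels, had deviations from their group means that correlated at 0.156, 0.432 and 0.329 over 14380 genes, against -0.382 to 0.163 for different numbers, and the numbers were taken to pair the libraries. GB20 replicate 3 correlated with SHAM replicate 1 at 0.163, above the first same-numbered pair. Same-numbered GB20 libraries correlated at -0.0758 to 0.0234 with MOG and at -0.117 to 0.0277 with GV16, although the block spanned the 12 libraries. The slope on gene length was lowest in replicate 2 (-0.116 in SHAM, -0.0490 in GB20) and highest in replicate 3 (0.0501 and 0.0225) of both groups. The part of gene length in these correlations was not tested. Adjusted p-values with the block rest on the assumed pairing and are given only as an alternative.

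The comparison and its gene lists were chosen with earlier results of these data known. Genes were named by rule, as the 10 largest rises and falls among DEGs with a mean of at least 1 CPM in the higher group, the 5 DEGs of smallest p, up to 5 called members of each list and the 2 members of smallest p in lists without a call. The other DEGs are named to complete the account, and any further gene is said to be chosen after its values were seen. Results for some genes are not reported here.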

Additional observations from a re-analysis of the deposited data

Results flagged for a closer look

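The distance from SHAM of 5 named genes differed between GB20 and another immunized group by the direct edgeR contrast. Car14, a carbonic anhydrase of Müller cells, was higher in GB20 than in MOG (log2 fold change 0.4951, adjusted p = 0.016), and so was Cry1, a repressor of the circadian clock (0.3993, adjusted p = 0.015). Cnp, a myelin enzyme, was lower in GB20 than in MOG (-0.5789, adjusted p = 0.0077). Osmr was lower in GB20 than in MOG (-0.6653, adjusted p = 0.030), and Gpnmb was lower in GB20 than in MOG (-1.734, adjusted p = 5.5e-06) and than in GV16 (-1.233, adjusted p = 0.0070).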

How the results depend on the processing

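All 63 DEGs kept their direction in each alternative, except that 62 were still tested at a mean of at least 1 CPM. The count of 63 (30 higher, 33 lower) was 282 (134, 148) with no filter on low counts, 152 (69, 83) with DESeq2 on the 12 libraries, 124 (54, 70) with DESeq2 on the 6, and 134 (52, 82) with a length correction. With the replicate block it was 182 (68, 114), with the block and the length correction 249 (94, 155), and with the block on the 6 libraries, an alternative chosen after seeing the data, 461 (220, 241). The block ended the calls of Gfap and Serpina3n and of no other DEG. Under the block 37.4% of DEGs were higher and under the length correction 38.8%, against 47.6%. With 1 library left out the count ranged from 14 to 116, with 7 to 41 higher and 6 to 75 lower. Other scalings, a filter at 1 CPM, limma-voom, non-robust dispersions and edgeR on the 6 libraries gave 56 to 66, but not all the same genes. Of the 63 DEGs, 43 were still called by edgeR on the 6 libraries, 52 by limma-voom and 53 with non-robust dispersions. The filter at 1 CPM kept 54, and the other scalings kept 57 and 58. The causes were not tested.

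Among named genes that were not DEGs, some changed sign with 1 library left out. Crybb3 ranged from -0.7509 to 0.04447 (highest without SHAM replicate 2), Alas2 from -0.07945 (without GB20 replicate 1) to 0.644, Bpgm from -0.01893 (without SHAM replicate 3) to 0.1309, and Gpnmb from -0.0304 (without SHAM replicate 2, and -0.01887 without GB20 replicate 3) to 0.1547. Scarce transcripts are limited by depth, as for Ecel1 with 12 to 16 counts per SHAM library.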
